A study of Mus musculus with 6 samples.

Results

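The 10 genes described here are the regulators through which muscle fibres set their mitochondrial content and their use of fat: the coactivators Ppargc1a (PGC-1α) and Ppargc1b (PGC-1β), the fatty acid receptors Ppara and Ppard, the estrogen-related receptors Esrra, Esrrb and Esrrg, the nuclear factors Nrf1 and Gabpa, and the mitochondrial factor Tfam. They were taken by symbol from a gene count table of 24054 genes, and all 10 passed the filter on low counts that left 12660 genes for testing. The tissue was gastrocnemius, a calf muscle made mostly of fast fibres, from male C57BL/6 mice. The MI4KO group (3 libraries) carried a floxed Irf4 gene with Myl1-Cre, which deletes Irf4 in muscle fibres. The MI4OE group (3 libraries) carried Myl1-Cre with a Rosa26 Irf4 transgene that the same Cre switches on. Irf4 encodes interferon regulatory factor 4, a transcription factor. Both groups thus carried Myl1-Cre, a driver active in muscle fibres and not in the other cells of the tissue, and no Irf4-unmodified gastrocnemius was analysed here, so every difference is one between loss and gain of IRF4. The labels give a high fat diet, whereas the paper speaks of chow-fed mice, so the diet of these animals is in doubt, and their age is not given in the sources used here.

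PGC-1α and PGC-1β do not bind DNA themselves. They are recruited by DNA-bound receptors and raise the transcription of those receptors' target genes. In muscle, the estrogen-related receptors (ERRα, ERRβ and ERRγ) and the nuclear respiratory factors NRF1 and GABPA drive genes of the respiratory chain and the citric acid cycle, the PPARs drive genes of fatty acid uptake and oxidation, and TFAM, itself a target of the nuclear respiratory factors, packages and transcribes the mitochondrial genome. Exercise and slow-fibre identity are the settings in which this circuit is best known in skeletal muscle.

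The libraries held 18828605 to 29239585 expected counts each. Irf4 was at 6, 0 and 2 counts in the MI4KO libraries and at 2864, 10557 and 5911 in the MI4OE libraries, the direction that the labels give. Acta1, the skeletal muscle actin, stood at 39559 to 55108 CPM (counts scaled to library size with the TMM method) in all 6. One library stood apart in its fibre genes: the 10 slow-fibre markers summed to 7574 CPM in MI4OE 1, against 53.0 and 743 CPM in MI4OE 2 and 3 and 45.3, 143 and 157 CPM in MI4KO 1 to 3. MI4OE 1 was also the library with the lowest Irf4 level of its group, at 141 CPM against 369 and 261 CPM. The fold change of each regulator is therefore given with and without MI4OE 1. In whole tissue, fewer cells of a type and less RNA per cell cannot be told apart, and the p-values measure the spread between these libraries.

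None of the 10 regulators differed between MI4OE and MI4KO by edgeR's quasi-likelihood test at a Benjamini-Hochberg adjusted p below 0.05, a level that 0.0237% of all tested genes reached. At an unadjusted p below 0.05 the count was also 0 of 10, against 7.58% of all tested genes, and at the criterion of the study (1.5-fold and unadjusted p below 0.05) it was 0 of 10 against 6.64%. Under DESeq2, and likewise under the exact test of edgeR, 0 of 10 passed the adjusted threshold and 1 of 10, Esrrb, met the criterion of the study, which 7.62% (DESeq2) and 7.91% (exact test) of all tested genes met, so this count is near the background. The direction was higher in MI4OE for 7 members and lower for 3, and their median log2 fold change was 0.11 beside a median of 0.00 over all tested genes. This tally depended on MI4OE 1: without that library Ppargc1a, Ppara and Esrra turned lower in direction and Gabpa turned higher. MI4OE 1 held the highest or the lowest CPM of all 6 libraries for 10 of the 10 members, the highest for 7 and the lowest for 3. Over all tested genes it held one or the other for 62%. Without MI4OE 2, the library with the least slow-fibre RNA in its group, 4 members met the criterion of the study, namely Esrrb, Esrrg, Ppara and Ppargc1b, in a fit where 10.2% of all tested genes met it.

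**Figure D1:**
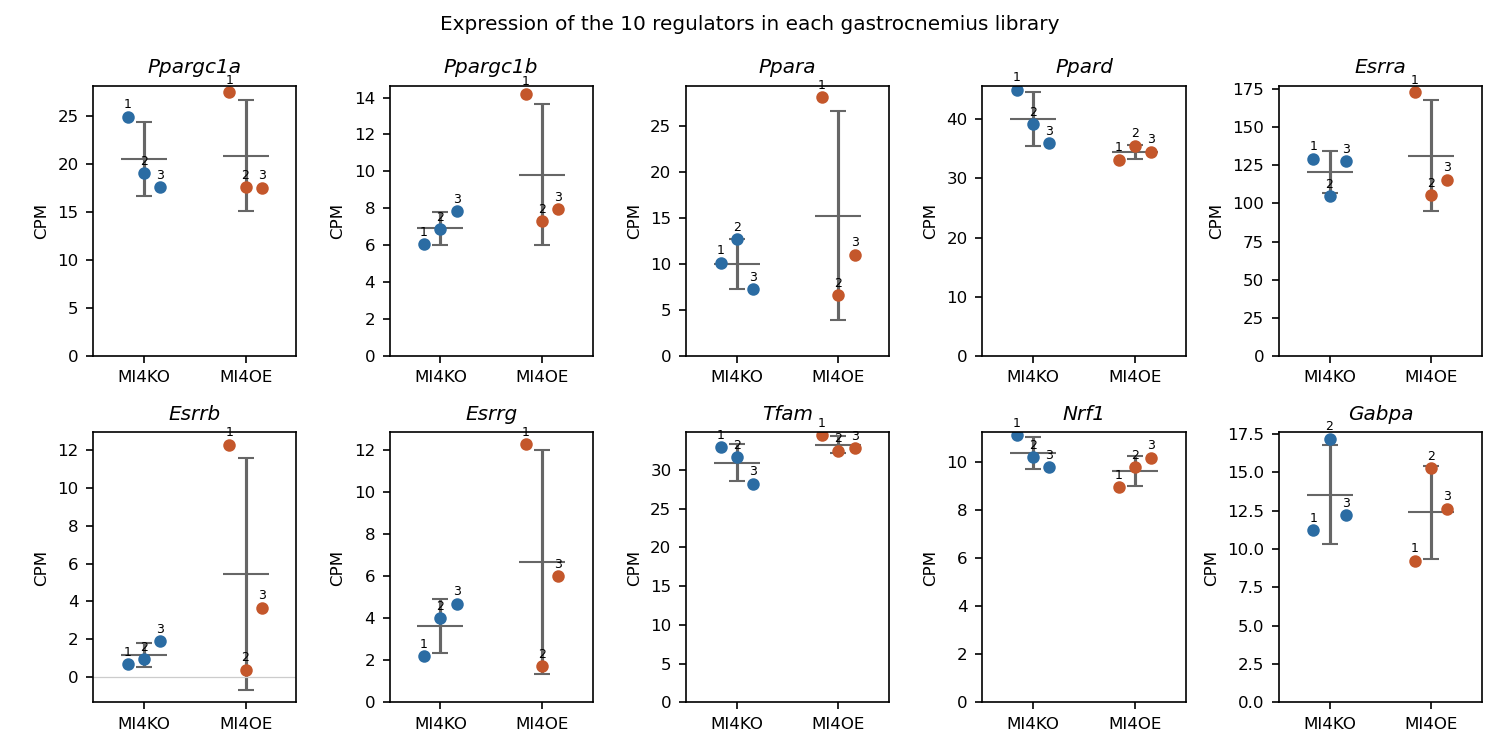
CPM of each of the 10 regulators (vertical axes, linear, each gene on its own scale) in the 3 MI4KO and 3 MI4OE libraries, with points numbered by replicate and lines for the group mean ± SD. Replicate 1 of MI4OE is the highest point for 7 genes and the lowest for Ppard, Nrf1 and Gabpa, and Ppard is the gene whose groups do not overlap.

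The levels of the regulators were ordered per length, as TPM, which divides the counts of a gene by its transcript length. Esrra was the most abundant by far, at a mean of 92.9 TPM over the 6 libraries (range 79.47 to 119.25). It was followed by Ppard at 19.0 TPM (15.65 to 22.86) and Tfam at 13.4 TPM (11.28 to 15.03). The ranges of these 3 did not overlap with each other or with the next gene. Below them came Nrf1 at 5.37 TPM, Ppargc1a at 5.09, Gabpa at 4.30, Ppargc1b at 3.73, Ppara at 2.77, Esrrg at 1.54 and Esrrb at 1.23 TPM, and each of these ranges overlapped with that of its neighbour. Nrf1 exceeded Ppargc1a in 4 of 6 libraries and Ppargc1a exceeded Gabpa in 4 of 6, so the order of those 3 is not settled. Ppargc1b exceeded Ppara, and Ppara exceeded Esrrg, in 6 of 6. Among the receptors and coactivators, then, the gene with the most RNA in both groups was the one for ERRα, and the ones for ERRβ and ERRγ had the least.

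Promoter windows are shown for 4 members: Ppargc1a, the coactivator on which the group centres, Esrrb, the member with the widest range between libraries, and Ppara and Tfam, in whose windows a searched motif occurred. Each is the 250 bases before a RefSeq transcription start in build GRCm38.p6, 5′ to 3′ on the strand of the gene. The search among members left out 1 chromosome, and no window of Ppargc1b was searched, so its promoter is not described. The other 9 of the 10 members had 14 windows in all. Capitals mark a match to 1 of 3 motifs searched on both strands, namely an ERR half-site (AAGGTCA), an NRF1 site (GCGCA, any base, then GCGC) or a GABP site (CCGGAAG). No 2 matches overlapped.
Ppargc1a, chr5:51567726-51567975, minus strand: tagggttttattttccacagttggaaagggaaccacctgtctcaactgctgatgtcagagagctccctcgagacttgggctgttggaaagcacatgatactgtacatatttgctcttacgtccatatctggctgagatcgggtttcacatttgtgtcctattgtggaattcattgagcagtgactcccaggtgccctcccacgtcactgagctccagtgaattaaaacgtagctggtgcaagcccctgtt
Esrrb, the first of its windows, chr12:86360867-86361116, plus strand: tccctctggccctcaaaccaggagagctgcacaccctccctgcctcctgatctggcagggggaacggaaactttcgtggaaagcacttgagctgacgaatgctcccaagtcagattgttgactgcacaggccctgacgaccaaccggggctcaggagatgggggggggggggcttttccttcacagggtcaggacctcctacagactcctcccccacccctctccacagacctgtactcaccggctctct
Ppara, chr15:85735526-85735775, plus strand: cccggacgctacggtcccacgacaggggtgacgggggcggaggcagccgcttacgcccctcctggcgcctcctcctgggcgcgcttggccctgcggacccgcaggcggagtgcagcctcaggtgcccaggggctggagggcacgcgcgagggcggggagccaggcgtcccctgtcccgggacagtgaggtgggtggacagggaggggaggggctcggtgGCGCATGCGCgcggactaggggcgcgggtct
Tfam, chr10:71238045-71238294, minus strand: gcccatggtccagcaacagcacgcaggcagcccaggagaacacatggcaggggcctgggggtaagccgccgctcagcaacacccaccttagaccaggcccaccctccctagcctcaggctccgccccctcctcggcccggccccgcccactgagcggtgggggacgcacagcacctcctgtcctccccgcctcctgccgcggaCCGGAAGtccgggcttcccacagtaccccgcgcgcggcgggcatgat
The Ppara window held an NRF1 site 31 to 22 bases before the start, the Tfam window a GABP site 47 to 41 bases before the start, and the Gabpa window (not shown) a GABP site 93 to 87 bases before it. These letters occur in 3.74% (NRF1) and 6.91% (GABP) of all 32851 RefSeq windows of that length. The ERR half-site, present in 4.08% of all windows, was in none of the 14. A match of letters describes the window and is no measure of binding.

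Among the coactivators, Ppargc1a showed no group difference. It stood at 24.9, 19.0 and 17.6 CPM in MI4KO, against 27.5, 17.5 and 17.5 CPM in MI4OE. The first library of each group was the high one, and the groups overlapped fully. The log2 fold change, MI4OE against MI4KO, was 0.02 (SE 0.23, 95% confidence interval -0.52 to 0.57, adjusted p = 0.992, edgeR quasi-likelihood test). Without MI4OE 1 the log2 fold change was -0.23 and unadjusted p was 0.284. Its highest CPM was 1.57 times its lowest, and 66.8% of all tested genes had a larger ratio.

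Ppargc1b, the closest relative of Ppargc1a, was higher in one MI4OE library than in the other 5. It was at 6.06, 6.85 and 7.86 CPM in MI4KO, against 14.2, 7.31 and 7.95 CPM in MI4OE. Apart from MI4OE 1, the libraries lay close together, and MI4OE 2 lay below MI4KO 3. The log2 fold change was 0.50 (SE 0.28, 95% confidence interval -0.15 to 1.15, edgeR quasi-likelihood adjusted p = 0.748), and it was 0.14 without MI4OE 1. Within the PGC-1 family (Ppargc1a, Ppargc1b and the more distant Pprc1), Ppargc1b took 18.4, 23.0 and 26.6% of the summed TPM in MI4KO and 35.8, 23.7 and 25.5% in MI4OE. This share did not separate the groups (exact permutation test, two-sided, p = 0.4, where 0.1 is the smallest p that 3 against 3 allow). The share of Ppargc1a was 33.1 to 42.2% in MI4KO and 31.3 to 38.6% in MI4OE (exact permutation p = 0.5). Pprc1 took 39.4 to 41.5% in MI4KO and 25.6, 44.8 and 43.2% in MI4OE, so that in MI4OE 1 Ppargc1b had more TPM than Pprc1 and in the other 5 libraries less.

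Ppara, the main fatty acid receptor of liver and an inducer of fat oxidation in muscle, varied more between libraries than Ppard. It stood at 10.2, 12.7 and 7.29 CPM in MI4KO, against 28.2, 6.61 and 11.0 CPM in MI4OE. MI4OE held both the highest and the lowest value. Fitted over all libraries, the log2 fold change was 0.60 (SE 0.50, 95% confidence interval -0.57 to 1.77, edgeR quasi-likelihood adjusted p = 0.845), and without MI4OE 1 it turned to -0.19. Ppara made up 8.23, 9.90 and 5.91% of the TPM of the 3 PPAR genes in MI4KO and 24.4, 6.97 and 11.2% in MI4OE (exact permutation test, p = 0.3).

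Ppard, the PPAR most expressed in muscle, was the one member whose groups did not overlap. Its values were 45.03, 39.22 and 35.97 CPM in MI4KO, against 33.16, 35.55 and 34.54 CPM in MI4OE. All MI4OE libraries lay below all MI4KO libraries, the nearest pair being separated by less than 1 CPM. Groups that do not overlap were seen for 12.9% of all tested genes, and with MI4OE below for 5.48% (above for 7.38%), so 1 of 10 members is near the background. The Ppard log2 fold change was -0.22 (SE 0.15, 95% confidence interval -0.56 to 0.12, edgeR quasi-likelihood adjusted p = 0.799) and -0.20 without MI4OE 1. Scaled per length as a share of the PPAR family, Ppard took 85.6, 69.8 and 67.2% in MI4KO and 65.7, 85.8 and 80.7% in MI4OE (exact permutation p = 0.9). The third PPAR gene, Pparg, the adipocyte receptor, took 6.15 to 26.9% in MI4KO and 7.23 to 9.91% in MI4OE (exact permutation p = 0.4).

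The ERR genes differed widely in how much they varied. Esrra, which encodes the main ERR of mitochondrial gene control, was at 129, 105 and 128 CPM in MI4KO, against 173, 105 and 115 CPM in MI4OE. MI4OE 1 was the high library and the others overlapped. The log2 fold change was 0.12 (SE 0.23, 95% confidence interval -0.41 to 0.66, edgeR quasi-likelihood adjusted p = 0.930), and it was -0.13 without MI4OE 1. Esrra accounted for 97.8 to 99.1% of the summed TPM of the ERR genes in MI4KO and for 93.8, 99.2 and 96.4% in MI4OE (exact permutation p = 0.4).

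Esrrb, known for its part in pluripotent cells, had the largest fold change and the largest spread among the members. Its CPM values were 0.655, 0.951 and 1.88 in MI4KO and 12.3, 0.385 and 3.67 in MI4OE, from 16, 24 and 56 counts and 250, 11 and 83 counts. MI4OE 1 and 3 lay above every MI4KO library, and MI4OE 2 lay below every one. Fitted over all libraries, the log2 fold change was 2.20 (SE 1.01, 95% confidence interval -0.15 to 4.55, unadjusted p = 0.0630, adjusted p = 0.685 by edgeR's quasi-likelihood test). It was 0.77 without MI4OE 1 (unadjusted p = 0.394) and 2.76 without MI4OE 2 (unadjusted p = 0.00211, adjusted p = 0.291). The highest library was 32.0 times the lowest, a ratio exceeded by 0.687% of all tested genes. The share of Esrrb in the ERR family TPM was 0.262, 0.463 and 0.751% in MI4KO and 3.45, 0.186 and 1.59% in MI4OE (exact permutation p = 0.4).

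Esrrg, the ERR typical of oxidative and slow fibres, had the second largest ratio. It was at 2.211, 4.002 and 4.702 CPM in MI4KO, against 12.30, 1.713 and 6.006 CPM in MI4OE. As for Esrrb, MI4OE 1 and 3 were the top libraries and MI4OE 2 the lowest of all. The Esrrg log2 fold change was 0.86 (SE 0.63, 95% confidence interval -0.61 to 2.33, edgeR quasi-likelihood adjusted p = 0.823), 0.07 without MI4OE 1 and 1.32 without MI4OE 2 (unadjusted p = 0.0132). The highest library was 7.18 times the lowest, and 4.87% of tested genes had a larger ratio.

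Of the factors that act on the mitochondrial genome and on nuclear respiratory genes, Tfam and Nrf1 had the smallest ratios of highest to lowest library among the 10 members, and Gabpa varied more. Tfam stood at 32.9, 31.6 and 28.2 CPM in MI4KO, against 34.5, 32.4 and 32.8 CPM in MI4OE. Its highest library was 1.22 times its lowest, and 95.1% of tested genes had a larger ratio. The log2 fold change was 0.11 (SE 0.14, 95% confidence interval -0.21 to 0.43, edgeR quasi-likelihood adjusted p = 0.897). Nrf1, which encodes nuclear respiratory factor 1, was at 11.1, 10.2 and 9.81 CPM in MI4KO, against 8.95, 9.79 and 10.2 CPM in MI4OE. The groups overlapped, and the log2 fold change was -0.11 (SE 0.15, 95% confidence interval -0.46 to 0.25, edgeR quasi-likelihood adjusted p = 0.903). Gabpa, the DNA-binding subunit of nuclear respiratory factor 2, was at 11.2, 17.2 and 12.2 CPM in MI4KO, against 9.25, 15.3 and 12.6 CPM in MI4OE. The second library of each group was the highest, and the log2 fold change was -0.13 (SE 0.25, 95% confidence interval -0.70 to 0.45, edgeR quasi-likelihood adjusted p = 0.935). Without MI4OE 1 the log2 fold changes of Tfam, Nrf1 and Gabpa were 0.08, -0.06 and 0.04. The expected counts of Tfam and Gabpa were not whole numbers although each has 1 listed transcript, so some of their reads were divided with other genes. The same holds for Ppargc1a, at 480.23 counts in MI4KO 2 and 501.56 in MI4OE 2, where 1 of its transcripts took all counts.

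**Figure D2:**
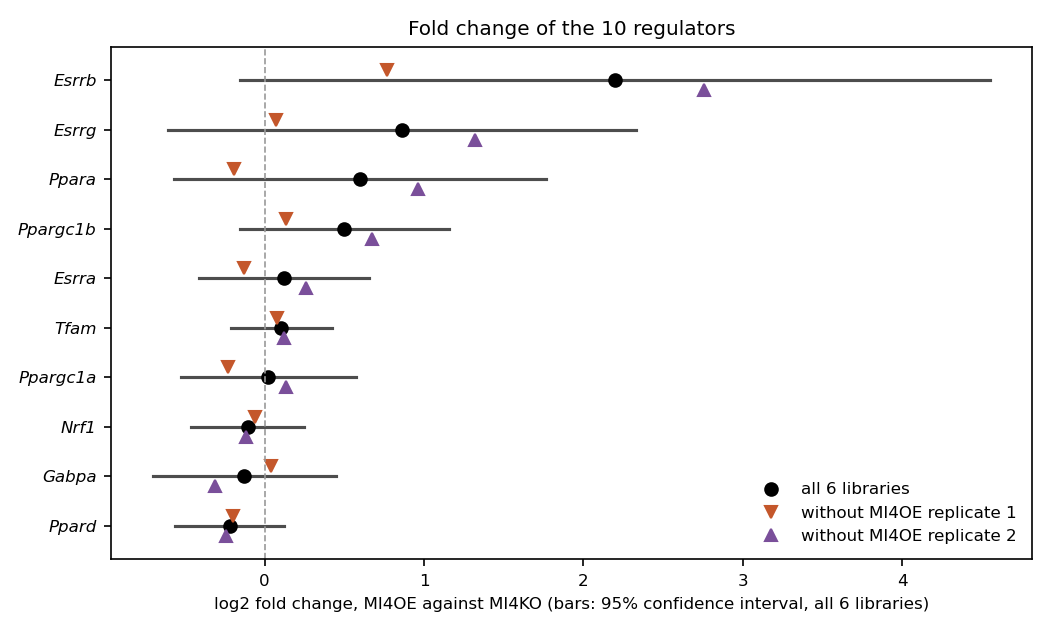
Log2 fold change of each regulator, MI4OE against MI4KO (horizontal axis), from all 6 libraries with its 95% confidence interval (circles and bars), without MI4OE replicate 1 (triangles pointing down) and without MI4OE replicate 2 (triangles pointing up). All 10 intervals include 0, and Esrrb ranges from 0.77 to 2.76 between the last 2 settings.

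Of the members that varied most, Esrrb and Esrrg followed the order of the slow-fibre genes closely and Ppara did so less. Across the 6 libraries the summed slow-fibre level ran from 45.3 CPM in MI4KO 1 to 7574 CPM in MI4OE 1, and Esrrb and Esrrg followed the same order except that the lowest pair, MI4KO 1 and MI4OE 2, changed places. Ppara was also highest in MI4OE 1, but MI4KO 2 lay above MI4OE 3, and MI4KO 1, the library with the lowest slow-fibre sum, lay above MI4KO 3 and MI4OE 2. Of the 10 slow-fibre markers, 10 were higher in MI4OE in direction, 7 met the criterion of the study (met in that direction by 4.36% of all tested genes) and 0 passed the adjusted threshold. Their median log2 fold change was 5.67, and 2.39 without MI4OE 1. The 9 fast-fibre markers summed to 146421 CPM in MI4OE 1 and to 215657 to 286744 CPM in the other 5 libraries. The part of fibre type in the Esrrb, Esrrg, Ppara and Ppargc1b values was not tested.

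**Figure D3:**
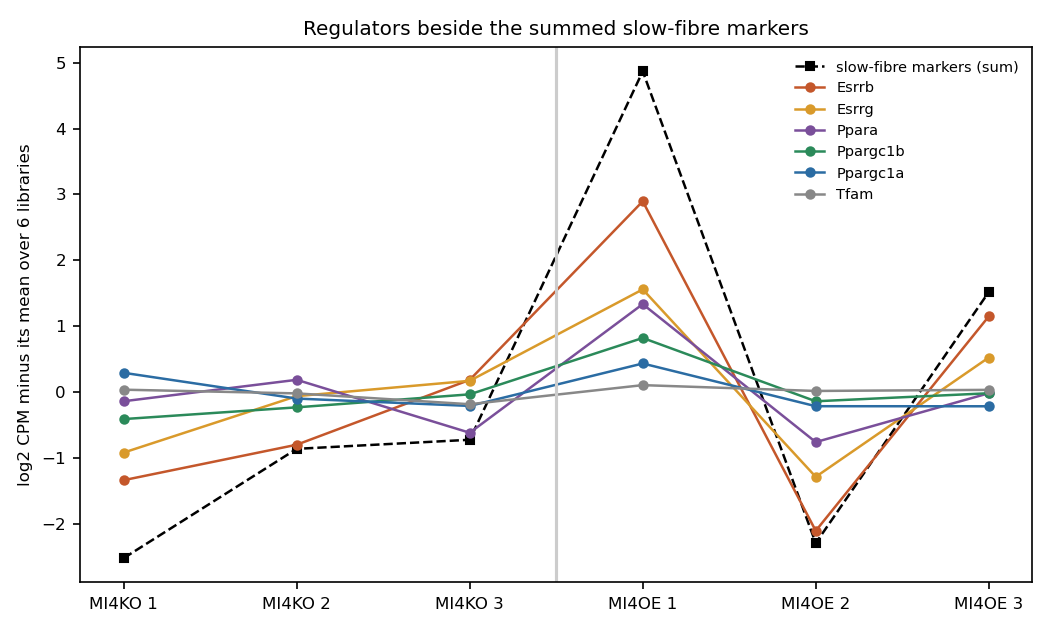
Log2 CPM of 6 regulators and of the summed slow-fibre markers (dashed line), each minus its own mean over the 6 libraries shown on the horizontal axis, with lines that only join the points of a gene. Esrrb, Esrrg, Ppara and Ppargc1b peak in MI4OE 1 with the slow-fibre sum, Ppargc1a less so, and Tfam stays nearly flat.

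Marker genes of other cell types also had different sums in the groups, and their part in the members' values was not tested. No gene of the marker lists named next passed the adjusted threshold of edgeR's quasi-likelihood test, and the criterion of the study was met by 4.36% of all tested genes higher in MI4OE and by 2.28% lower. The 8 adipocyte markers summed to 535, 532 and 1198 CPM in MI4KO and to 410, 335 and 292 CPM in MI4OE, with 8 of 8 lower and 6 of 8 at the criterion of the study. The 8 endothelial markers summed to 118 to 187 CPM in MI4KO and 216 to 421 CPM in MI4OE, and 5 of 8 were higher at that criterion. For the 7 fibroblast markers the sums were 214 to 321 CPM and 370 to 504 CPM, with 7 of 7 higher at the criterion. Genes of the glucocorticoid and fasting response, a setting in which Ppargc1a and the PPARs are known to be induced in several tissues, summed to 3154, 1652 and 1127 CPM in MI4KO and to 1035, 1144 and 1208 CPM in MI4OE, and 16 of 16 were lower in direction, 6 of them at the criterion. The sums of that list overlapped between the groups, and its median log2 fold change of -0.85 was -0.35 without MI4KO 1. Brown adipocyte RNA was seen in MI4KO 2, where Ucp1 stood at 71.0 CPM and Cidea at 24.8 CPM. Ucp1 was at or below 0.148 CPM elsewhere. The sums of the macrophage (21.7 to 46.4 CPM), Schwann cell (28.4 to 223 CPM), satellite cell (12.6 to 26.9 CPM) and erythrocyte markers (189 to 755 CPM) overlapped between the groups. The sum of the 6 brown adipocyte markers (112 to 557 CPM) was in 5 of the 6 libraries almost wholly Cox7a1 (111 to 545 CPM), a cytochrome c oxidase subunit that muscle fibres also express, and so does not measure brown adipocytes. The 6 muscle identity genes summed to 94298 to 126575 CPM in MI4KO and to 83505 to 94116 CPM in MI4OE. These sums did not overlap, though MI4KO 3 and MI4OE 2 lay close together. Of these genes, 5 were lower and 1 higher in direction in MI4OE, and 0 met the criterion of the study.

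The table held 2 transcripts of Ppargc1a, the coding NM_008904 of 6464 bases and the non-coding NR_027710 of 6495 bases. NR_027710 was assigned 258, 0 and 118 expected counts in MI4KO and 0, 0 and 0 in MI4OE, and NM_008904 was assigned 351, 480 and 406 counts in MI4KO and 559, 502 and 397 in MI4OE. The non-coding transcript was thus seen in 2 MI4KO libraries and listed at 0 in the other 4. It made up 21.6% ± 21.2 (SD, n = 3) of the Ppargc1a counts in MI4KO and 0% in MI4OE, a difference of -21.6 percentage points that the exact permutation test did not separate from the spread (two-sided p = 0.4). The transcripts differ in length by 31 bases, and if they differ by 1 such stretch, only 4.93 to 7.57 reads of 50 bases per library would be expected to touch it. In that case the split would rest on few reads, whereas the gene total does not depend on it.

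**Figure D4:**
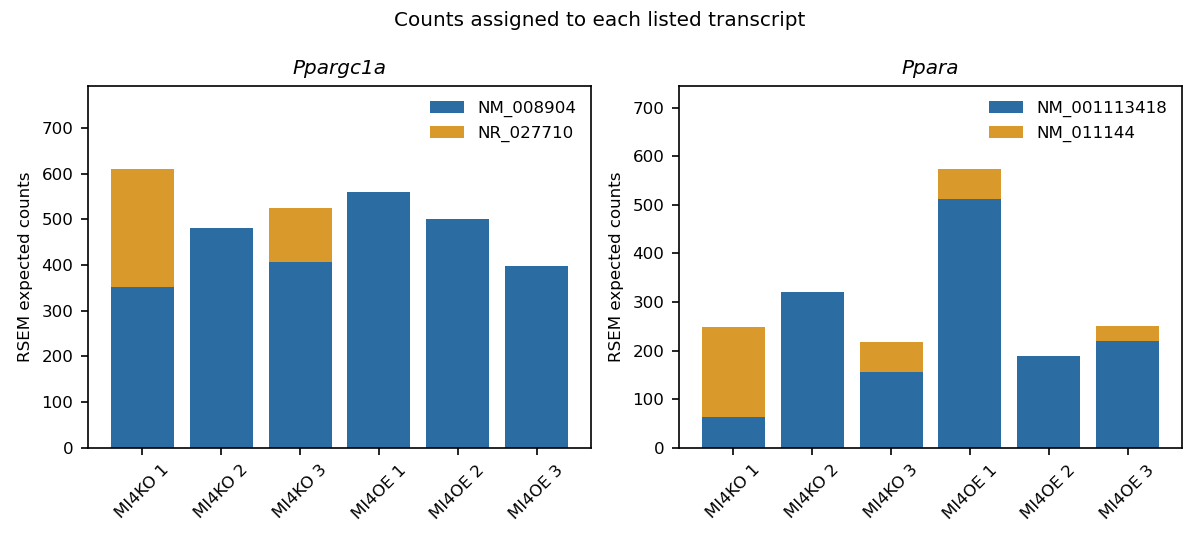
RSEM expected counts (vertical axis, stacked bars from 0) assigned to the 2 transcripts of Ppargc1a (left) and of Ppara (right) in each library. NR_027710 appears in MI4KO 1 and MI4KO 3 alone, and NM_011144 takes most of the Ppara counts in MI4KO 1 and none in MI4KO 2 and MI4OE 2.

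The splits of the other members with more than 1 transcript varied between libraries to different degrees. Ppara NM_011144 took 74.4, 0 and 28.4% of the gene's counts in MI4KO and 10.7, 0 and 12.3% in MI4OE (exact permutation p = 0.4). Esrrb NM_001159500 was listed at 0 in all MI4KO libraries and in MI4OE 2, and it was assigned 67.7 and 24.5 counts in MI4OE 1 and 3, the libraries with the most Esrrb (exact permutation p = 0.4). Esrrg NM_011935 was assigned 53.7 counts in MI4OE 3 and 0 elsewhere. Of 6 Nrf1 transcripts, NM_010938 held the largest share (41.4 to 76.1% in MI4KO and 42.7 to 72.6% in MI4OE), and NM_001164228 was listed at 0 in every library. The exact permutation p was 0.2 to 1 over the Nrf1 transcripts. The remaining 5 members had 1 transcript each.

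The genes that recruit, modify or restrain PGC-1 were more often lower than higher in MI4OE, without any of them passing the adjusted threshold. Of 36 tested partner and control genes, 12 were higher and 24 lower in direction, with a median log2 fold change of -0.11 that became 0.01 without MI4OE 1, and 0 passed the adjusted threshold by edgeR's quasi-likelihood test. At the criterion of the study 0 were higher (background 4.36%) and 2 were lower (background 2.28%). Lpin1, a coactivator of PGC-1α and PPARα and an enzyme of lipid synthesis, was at 424, 309 and 233 CPM in MI4KO, against 157, 234 and 192 CPM in MI4OE (log2 fold change -0.73, SE 0.27, unadjusted p = 0.0275, edgeR quasi-likelihood adjusted p = 0.578). Pparg was at 1.76, 6.26 and 7.76 CPM in MI4KO, against 2.80, 1.68 and 1.94 CPM in MI4OE (log2 fold change -1.30, SE 0.52, unadjusted p = 0.0374, edgeR quasi-likelihood adjusted p = 0.626), beside the adipocyte markers that were lower in the same libraries. For Lpin1 a single pair overlapped, MI4OE 2 and MI4KO 3, and for Pparg the low library MI4KO 1 lay within the MI4OE range. The coactivator Pprc1, relative of the PGC-1 genes, had a log2 fold change of 0.01.

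Among the 5 lists of partners and targets, the PPAR target genes had the largest median difference with all 6 libraries, and it was small without MI4OE 1. Without MI4KO 1, the list of cytochrome c oxidase genes had a larger median, 0.55 against 0.49. Of 26 PPAR targets tested, 21 were higher and 5 lower in direction, with a median log2 fold change of 0.57 that was 0.09 without MI4OE 1. At the criterion of the study 3 were higher (4.36% of all tested genes were) and 1 was lower (2.28%), and 0 of 26 passed the adjusted threshold. Fabp3, the fatty acid binding protein of heart and oxidative muscle, was at 207, 149 and 378 CPM in MI4KO, against 2676, 163 and 484 CPM in MI4OE (log2 fold change 2.18, SE 0.93, unadjusted p = 0.0487). Acot2, a mitochondrial acyl-CoA thioesterase, was at 12.8, 13.9 and 22.9 CPM in MI4KO, against 84.1, 18.3 and 26.5 CPM in MI4OE (log2 fold change 1.37, SE 0.56, unadjusted p = 0.0404). Its cytosolic relative Acot1 ran from 0.0792 to 0.940 CPM in MI4KO and was at 7.08, 0.315 and 1.41 CPM in MI4OE (log2 fold change 2.86, SE 1.22, unadjusted p = 0.0485). Acot1 and Acot2 are near-identical copies, so reads may have been divided between them. In all 3 genes MI4OE 1 was far above the rest and MI4OE 2 lay within the range of MI4KO.

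Angptl4, a secreted inhibitor of lipoprotein lipase that PPARs induce, differed in the opposite direction. It was at 6.18, 6.06 and 13.7 CPM in MI4KO, against 1.57, 2.59 and 2.52 CPM in MI4OE, with every MI4OE library below every MI4KO library. Fitted over all libraries, the log2 fold change was -1.95 (SE 0.39, unadjusted p = 0.00122, edgeR quasi-likelihood adjusted p = 0.433). Angptl4 is also induced by glucocorticoids and made by adipocytes, and the genes of both lists were lower in MI4OE in direction, though the glucocorticoid sums overlapped between the groups. Their part in its value was not tested. Cpt1b, the muscle carnitine palmitoyltransferase and 1 of the 3 PPAR targets with the most CPM (a scale not corrected for length), was at 291, 276 and 331 CPM in MI4KO, against 644, 292 and 374 CPM in MI4OE.

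Of 36 tested oxidative targets of ERR and PGC-1, 33 were higher and 3 lower in direction in MI4OE, 0 met the criterion of the study and 0 passed the adjusted threshold, and 0 had an unadjusted p below 0.05. Their median log2 fold change was 0.35, and 0.04 without MI4OE 1. Slc25a4, the ADP/ATP carrier and the one with the most CPM, was at 4278, 2942 and 4207 CPM in MI4KO, against 5929, 3186 and 3861 CPM in MI4OE. Atp5b, the catalytic subunit of ATP synthase, was at 2400, 1880 and 2313 CPM in MI4KO, against 3700, 2050 and 2441 CPM in MI4OE. For both genes MI4KO 2 was the lowest library and MI4OE 1 the highest. The 18 nuclear genes for cytochrome c oxidase subunits and its assembly had a median of 0.43, which was -0.09 without MI4OE 1, and 17 were higher in direction and 0 met the criterion. Cox6a2, the muscle isoform of subunit 6a, was at 961, 643 and 1037 CPM in MI4KO, against 2144, 765 and 1045 CPM in MI4OE.

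The machinery that copies and transcribes mitochondrial DNA, with which TFAM works, held no gene past either threshold. Of 17 genes tested, 13 were higher and 4 lower in direction with a median log2 fold change of 0.05 (0.02 without MI4OE 1). Lonp1, the matrix protease that degrades TFAM, was at 108, 99.1 and 110 CPM in MI4KO, against 110, 103 and 107 CPM in MI4OE. Polrmt, the mitochondrial RNA polymerase, had a log2 fold change of 0.01, and Tfb2m, its initiation partner, one of -0.15. None of 9 mitochondrially encoded genes looked for was listed in the count table, so the output of that machinery was not analysed here.

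**Figure D5:**
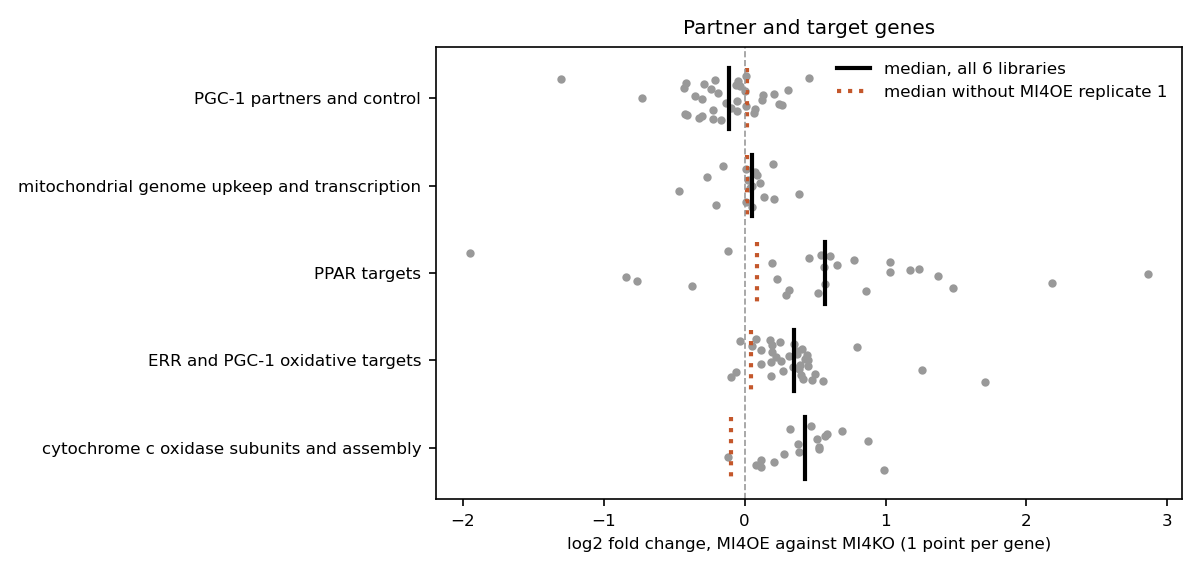
Log2 fold change, MI4OE against MI4KO (horizontal axis), of every tested gene in 5 lists of partners and targets, 1 point per gene, with the list median from all 6 libraries (solid line) and without MI4OE replicate 1 (dotted line). The medians of the PPAR, ERR and cytochrome c oxidase lists move from 0.57, 0.35 and 0.43 to 0.09, 0.04 and -0.09 when that library is left out.

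For Ppargc1a and Esrrb, the genes with the closest profile were sought among 11296 tested genes with a mean of at least 1 CPM, by the root mean square distance between centred log2 CPM values over the 6 libraries. The closest to Ppargc1a were Snupn (distance 0.07), Manf (0.07), Pdxk (0.08) and Kin (0.08). Manf, a secreted protein of the endoplasmic reticulum stress response, was at 13.0, 11.1 and 10.6 CPM in MI4KO and 15.5, 9.54 and 9.19 CPM in MI4OE, with the same high first library in each group as Ppargc1a. The closest to Esrrb were Hspb7 (0.21), Klhl34 (0.21), Barx2 (0.23) and Vgll2 (0.26). Hspb7, a small heat shock protein of heart and muscle, was at 174, 170 and 368 CPM in MI4KO, against 1523, 121 and 426 CPM in MI4OE. Vgll2, a muscle cofactor of TEAD factors, was at 20.6, 19.8 and 41.4 CPM in MI4KO, against 163, 18.3 and 57.4 CPM in MI4OE. All 4 of these profiles peaked in MI4OE 1. Because the genes were chosen by nearness, a peak shared with Esrrb or Ppargc1a follows from the choice. Nearness over 6 libraries is a description of these samples.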

How the data were processed

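RNA from gastrocnemius was made into stranded mRNA libraries and read as 50-base single reads. Per the study's methods and the submitters' processing notes, the authors demultiplexed with bcl2fastq 2.17, aligned to a transcript set with Bowtie2 2.1.0 and deposited RSEM 1.2.15 expected counts and TPM per gene and transcript. The genome build is not given in the sources used here. Deposited columns of the authors' comparison (fold changes and p-values) and 12 per-library CPM columns were not used.

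Expected counts were rounded, filtered with filterByExpr (minimum count 10, minimum total 15), scaled by TMM and tested with edgeR 4.0.16 (quasi-likelihood) in R 4.3.3, adjusting by Benjamini-Hochberg over 12660 genes. The study names edgeR but not the test. limma 3.58.1, DESeq2 1.42.0, edgeR's exact test, other scalings and filters and the leaving out of each library were alternatives. Shares of TPM or of counts (percent, computed here from the deposited values) were compared by exact two-sided permutation. A count of 3, taken as the floor, equals 0.101 to 0.148 CPM, which covers counting error only. Libraries were grouped by their genotype labels, and the methods describe the samples as muscles of mice of each genotype. The count table equalled the per-library gene files within 0.011 counts.

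Members, lists and tests were chosen with earlier results of these data known. Besides the members, genes of the lists were eligible to be named at an unadjusted p below 0.05 or as 1 of the 3 with the highest mean CPM of a list, as were the 4 closest profiles to Ppargc1a and to Esrrb. Polrmt, Tfb2m and Lonp1 had the 3 highest mean CPM values of their list, a scale not corrected for length. Pprc1, Ucp1 and Cidea are given as family or marker genes and were named after their values were seen.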

Additional observations from a re-analysis of the deposited data

How the results depend on the processing

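No member passed the adjusted threshold in any of 16 alternatives. The number of members at 1.5-fold and unadjusted p below 0.05 was 1 (Esrrb) with no filter on low counts, under DESeq2 and under the exact test. Of all tested genes, 6.71% (no filter), 7.62% (DESeq2) and 7.91% (exact test) met that criterion, so this number is near the background. It ranged from 0 to 4 when each library was left out, in fits where 4.56 to 10.2% of all tested genes met the criterion. The value of 4 (Esrrb, Esrrg, Ppara and Ppargc1b) was that without MI4OE 2, the fit with 10.2%. Over all genes, 3 passed the adjusted threshold, against 111 with DESeq2, 112 with the exact test and 1 to 4 with a library left out. At the criterion of the study there were 841 genes, 468 with limma on log2(TPM + 1) and 590 to 1314 with a library left out, the highest without MI4OE 2. Leaving out a library gave log2 fold changes of -0.23 to 0.18 for Ppargc1a, -0.31 to 0.07 for Gabpa, -0.19 to 0.96 for Ppara and -0.13 to 0.26 for Esrra, so none of these 4 had a settled direction. Ppargc1a was also at -0.0040 with no filter. Without MI4OE 1, Ppargc1a, Ppara, Esrra and Gabpa changed sign, Gabpa to 0.04, and it was 0.072 without MI4KO 2. Esrrb kept its direction in all 16, at 0.77 to 2.76, with adjusted p from 0.288 to 0.993. Total counts without TMM moved the median of all genes to 0.09. The median log2 fold change of the slow-fibre markers, 5.67 in the main fit, was 2.90 with limma on log2(TPM + 1). The difference in the share of the non-coding Ppargc1a transcript ranged from -32.4 to -11.3 points. The causes were not tested in any of these. No paired analysis was possible because no label pairs a MI4KO library with a MI4OE library. Members such as Esrrb, at 11 to 250 counts, are the least precise.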
